A study of Homo sapiens with 3 samples.

Results

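The Notch pathway and the ID genes were examined here through 10 genes: the receptor gene NOTCH1, the ligand genes DLL1 and DLL3, the repressor genes HES1, HES5, HES6 and HEY1, and the inhibitor genes ID1, ID2 and ID3. They were chosen by name, with earlier results of these data known. Every accessible region was taken whose summit, the position of highest signal, lay inside one of the genes or within 50 kb of its outer ends. This gave 73 regions with 151 summits, out of 65234 regions with 145092 summits in the whole list. The regions come from ATAC-seq, in which the Tn5 transposase cuts and tags accessible DNA. The cells were neurons at 14 days of differentiation, grown from KOLF2.1J-hNGN2. This is the human iPSC line KOLF2.1J, an established line of reprogrammed cells, with human NGN2 added. All 3 biological replicates form 1 group with no untreated or control arm, and all carry NGN2; what drives NGN2, and whether the line is a single clone, is not given in the sources used here. A single list stands for all of them, so no spread between replicates can be given, nothing below is tested against it, and every comparison is between places in the genome.

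Notch signalling passes between touching cells. A Delta or Jagged ligand on one cell pulls on a Notch receptor on its neighbour, proteases release the receptor's intracellular part, and this part joins the DNA-binding protein RBPJ in the nucleus to switch on HES and HEY genes, whose products repress proneural genes and hold a cell in the progenitor state. ID proteins lack a DNA-binding region and bind E proteins, the partners that proneural factors such as NGN2 need, and BMP signals raise them in many tissues. NGN2 in turn is known to raise Delta ligands and HES6, so the genes below stand both upstream and downstream of the factor the cells carry.

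All 10 genes had an accessible region at the start, against 68.4% of 20037 protein-coding genes. To count, a region had to have its strongest summit no more than 1 kb from the annotated start. For DLL1, DLL3 and HEY1 the reference used here lists no start, and the outer end of the gene with a region was taken instead, as for all 4194 protein-coding genes without a listed start. Fold enrichment, the authors' ratio of the tags at a summit to a local background, ranged from 4.00 at DLL1 to 9.68 at HES6 in these 10 regions, with a median of 6.21. Over the 13709 protein-coding genes with a start region the median was 10.6. None of the 10 genes exceeded that median, which by definition 50% of start regions do. The tags counted at each summit, recovered here from the ratio and its deposited p, ranked the genes otherwise. The 10 summits held 456 to 1805 tags with a median of 1286, against 966 over all start regions.

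Upstream sequence is shown for HES1, HES5, HES6 and ID2, whose strongest start summit fell within the 250 bases before the start, because these windows let the summits be set beside known binding words. The ID3 summit fell there as well, but its window held none of the words. The sequences are from RefSeq for GRCh38.p14, which held 7 of the 10 genes, and each runs 5′ to 3′ and ends at the base before the start. Capitals mark the RBPJ core TGGGAA, the N-box CACNAG and the class C box CACGNG bound by HES proteins, and the CCAAT box CCAAT, each on either strand.
HES1 (chr3:194135898-194136147, plus strand): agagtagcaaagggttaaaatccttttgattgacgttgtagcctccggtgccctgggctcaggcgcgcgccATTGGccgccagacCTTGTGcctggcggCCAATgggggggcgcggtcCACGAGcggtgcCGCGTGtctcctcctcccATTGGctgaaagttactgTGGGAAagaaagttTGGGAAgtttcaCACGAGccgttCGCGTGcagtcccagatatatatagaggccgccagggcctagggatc
HES5 (chr1:2530264-2530513, minus strand): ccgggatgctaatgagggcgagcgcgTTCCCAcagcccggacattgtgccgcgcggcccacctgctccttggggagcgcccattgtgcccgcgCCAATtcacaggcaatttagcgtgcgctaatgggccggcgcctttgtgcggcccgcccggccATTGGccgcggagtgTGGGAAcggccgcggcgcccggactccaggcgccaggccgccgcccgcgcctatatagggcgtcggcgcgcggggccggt
HES6 (chr2:238240039-238240288, minus strand): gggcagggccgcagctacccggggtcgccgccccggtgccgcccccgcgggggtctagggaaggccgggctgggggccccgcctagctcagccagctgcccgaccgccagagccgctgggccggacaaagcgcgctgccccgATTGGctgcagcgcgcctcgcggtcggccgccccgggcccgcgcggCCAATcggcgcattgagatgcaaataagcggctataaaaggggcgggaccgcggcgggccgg
ID2 (chr2:8681806-8682055, plus strand): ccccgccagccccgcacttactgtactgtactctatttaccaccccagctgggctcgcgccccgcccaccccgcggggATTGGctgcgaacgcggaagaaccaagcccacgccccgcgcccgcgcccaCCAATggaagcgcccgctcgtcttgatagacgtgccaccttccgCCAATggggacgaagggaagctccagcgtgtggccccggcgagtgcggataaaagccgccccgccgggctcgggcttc

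The HES1 window held 2 RBPJ cores on the same strand, with first bases at -84 and -70, counted from 0 at the start. It also held 3 CCAAT boxes and, before the start, 3 N-boxes and 4 class C boxes. The words overlap: CACGAG is both an N-box and a class C box, and it occurred at -132 and at -58. The strongest HES1 start summit, at -131, fell inside the first of these. HES5 held an RBPJ core at -224 on the opposite strand and another at -80, and CCAAT boxes at -157 and -95 on either side of its summit at -124. HES6 and ID2 held no RBPJ core in this window. HES6 had CCAAT boxes at -108 and -62 around its summit at -94, and ID2 had 3, the nearest at -78 beside its summit at -82.

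Each word is common. Over 35116 RefSeq promoter windows of 300 bases, from 250 before to 50 after the start, the RBPJ core was present in 24% on one strand or the other, the N-box in 38.0%, the class C box in 30.5% and the CCAAT box in 34.6%. Among the 7 windows of NOTCH1, HES1, HES5, HES6, ID1, ID2 and ID3, the RBPJ core was found in 2, HES1 and HES5, and the CCAAT box in 5. The word CAGATG, an E-box read by NEUROG2 and NEUROD factors, was in 0 of the 7 and in 14.7% of all windows. Another E-box, CAGCTG, was in HES6 and ID2, and in 17.9% of all windows. The BMP-SMAD word GGCGCC occurred 3 times in HES5, once in NOTCH1 and in none of the ID windows, against 19.2% of all windows. The SMAD4 word GTCTAG occurred in HES6 and in ID1, there at -138, against 5.87% of all windows. The SP1 word GGGCGG was in 5 of the 7 (45.0% of all), and the TATA word TATAAA in HES6 and ID1 (11.5%). ID3 held none of the 11 words searched. A match describes letters only and shows no binding. The strongest start summits of ID1 and NOTCH1, 931 and 345 bp upstream, lay outside these windows. Sequence at those summits was not searched, so a word missing from a window may still occur there. Weaker start summits of both genes fell inside their windows. They lay at -83 in ID1, with 1285 tags against 1286 at its strongest, and at -195 in NOTCH1, with 839 tags against 987. All 7 windows held more CpG pairs than the median of 14. They ran from 21 in HES1 (percentile 61.4 of all windows) and 22 in ID1 (percentile 63.3) to 45 in HES5 (percentile 96.8). Their GC content ran from 59.0% in HES1 to 78.0% in HES6, against a median of 58.7%.

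**Figure D1:**
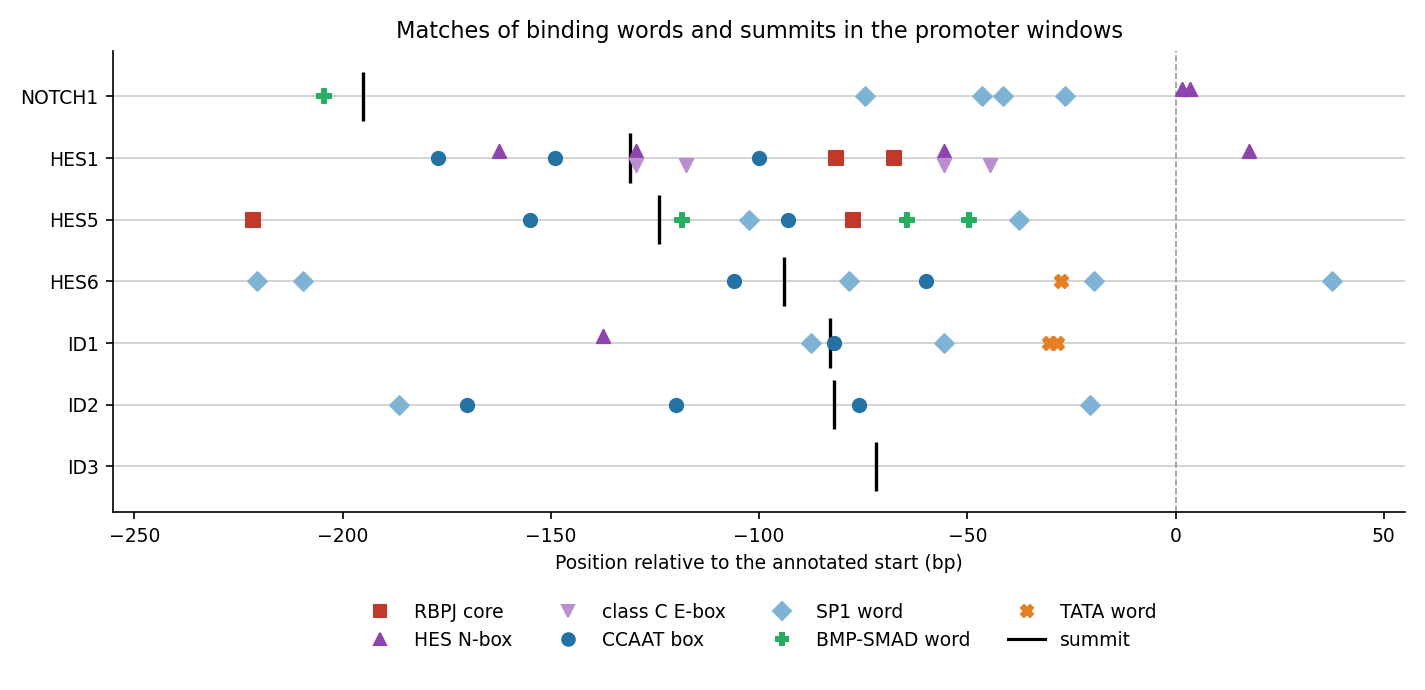
Positions of binding words (symbols) and of summits (black bars) in the promoter windows of the 7 genes with a listed start, in bp from the start (dashed line). The HES1 summit at -131 coincides with a match shared by the N-box and the class C box, and ID3 has a summit at -72 and no match.

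NOTCH1, the receptor gene on chromosome 9 (chr9:136494433-136546048, minus strand), had 11 regions with 21 summits in its window, the most of the 10 genes. Its start region (chr9:136545754-136546884) held 2 summits, of which the stronger lay 345 bp upstream with a fold enrichment of 5.69 and 987 tags (exact Poisson 95% interval 926 to 1051). MIR4674 has an end within 1 kb of it. A further 4 regions lay inside the gene. The 2 nearest the start, 2059 and 3609 bp into the gene, had fold enrichments of 1.87 and 3.43, and those deeper inside, at 19.6 and 33.5 kb, had 3.24 and 4.47. The strongest region of the window by ratio was outside the gene, 26.3 kb upstream (chr9:136571947-136573032), with a fold enrichment of 8.96 and 901 tags. A region beyond the far end of the gene (chr9:136482617-136484277) had nearly the same ratio, 8.90, and more tags, 1756, but it lies at an end of SEC16A, a gene for the sites where vesicles leave the endoplasmic reticulum. The next outside the gene (chr9:136587947-136589091), 42.3 kb upstream, reached 3.07.

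The ligand genes differed. DLL1, which activates Notch on neighbouring cells, lies on chromosome 6 (chr6:170282206-170291078) and had 7 regions with 15 summits. The region at its higher-coordinate end (chr6:170290570-170292217) was 1648 bp wide with 4 summits, the strongest 162 bp inside the gene with a fold enrichment of 4.00 and 939 tags (interval 880 to 1001). An end of FAM120B lies there too, and the 2 genes overlap, so which of them the signal belongs to cannot be told apart. The highest ratio of the window, 15.4 with 1429 tags (chr6:170305967-170307179), was found 15.6 kb beyond that end, inside FAM120B. Gene ends here are outer ends only, so a start of a shorter FAM120B transcript near this region was not looked for. Which of the 2 genes the region belongs to was therefore not determined. Between it and the region at the end of DLL1 lay 3 weaker regions, 4.86 to 7.08 kb beyond the end, with fold enrichments of 2.68 to 3.04. On the other side of the gene, regions 10.5 and 47.0 kb from the same end had ratios of 3.38 (chr6:170280032-170280992) and 6.67 (chr6:170243773-170245163).

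DLL3, a ligand-like protein kept mostly inside the cell, where it dampens Notch, lies on chromosome 19 (chr19:39498947-39508469) and had 8 regions with 20 summits. Its region at the lower-coordinate end (chr19:39497710-39498728) had the fewest tags of the 10 start regions, 456 (interval 415 to 500), at a fold enrichment of 7.94. The summit lay 914 bp outside the gene, close to the limit of 1 kb. A second region inside the gene (chr19:39506856-39507801), 8307 bp from that end, was of similar size, with 8.46 and 528 tags. The 3 highest ratios of the window belonged to ends of other genes: EID2B with 16.6 (chr19:39532186-39533386), TIMM50, for a mitochondrial import protein, with 13.7 (chr19:39480352-39481342), and EID2 with 13.6 (chr19:39539389-39540620). In all, 4 of the 8 DLL3 regions lay at an end of another protein-coding gene, the most of the 10 windows, and the lowest ratio of the window was 4.07.

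HES1, the repressor that most directly reports Notch activity in many tissues, lies on chromosome 3 (chr3:194136148-194138732, plus strand) and had 6 regions with 14 summits. The strongest signal was split into 2 neighbouring regions. One (chr3:194135838-194136267) had its summit 131 bp upstream of the start, a fold enrichment of 4.49 and 1286 tags (interval 1217 to 1358). The other (chr3:194133991-194135389) had its summit 1096 bp upstream, just past the limit of 1 kb, with 5.16 and 1386 tags. One more region 5275 bp downstream of the start, beyond the far end of the gene (chr3:194140636-194142147), had 4 summits, a ratio of 4.41 and 793 tags. The remaining 3 lay 23.4 to 49.4 kb upstream, inside the uncharacterised LOC102724877, with fold enrichments of 2.86 to 4.81 and no more than 184 tags. No other protein-coding gene had an end at any of the 6 regions.

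HES5, another direct Notch target, lies on chromosome 1 (chr1:2528745-2530263, minus strand) and had 7 regions with 15 summits. Its start region (chr1:2529977-2530870) had a single summit 124 bp upstream, a fold enrichment of 5.03 and 1356 tags (interval 1285 to 1430), the highest of the window by both measures. HES5 was the only 1 of the 10 genes whose start region had the highest ratio of its window, against 44.8% of protein-coding genes with a start region. The region downstream (chr1:2525835-2527633), at an end of PANK4, had 4.83 and 1171 tags. Upstream, 5 regions stood in a row between 2.73 and 17.9 kb from the start, with fold enrichments of 2.28 to 3.00 and 408 to 510 tags, and the strongest of them (chr1:2540669-2541221) lay 10.8 kb upstream. Beyond 17.9 kb upstream the window held no region.

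HES6 opposes HES1 and favours neuronal differentiation. It lies on chromosome 2 (chr2:238238267-238240038, minus strand) and had 7 regions with 14 summits. The start region (chr2:238239569-238241337) was 1769 bp wide with 4 summits, the strongest 94 bp upstream with a fold enrichment of 9.68 and 1358 tags (interval 1287 to 1432). This was the highest ratio among the 10 start regions. In its window 2 regions had higher ratios. One (chr2:238202987-238204264), at an end of the phosphatase gene ILKAP, reached 12.8 with 906 tags. The other (chr2:238288335-238289468) lay 48.9 kb upstream inside the clock gene PER2 and reached 11.4 with 1982 tags, the most of any of the 73 regions. Its summit was over 1 kb from both outer ends of PER2, but its distance from the PER2 start was not measured. Which of PER2 and HES6 it belongs to was therefore not determined. Between this region and HES6 were 3 regions inside PER2 with ratios of 2.35 to 5.37, the highest at chr2:238263253-238263957.

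HEY1, a repressor related to the HES family, lies on chromosome 8 (chr8:79764010-79767767) and had 3 regions with 6 summits, the fewest of the 10 genes. The region at its higher-coordinate end (chr8:79767400-79768860) had the most tags of the 10 start regions, 1805 (interval 1723 to 1890), at a fold enrichment of 7.86. LINC01607, a non-coding gene, has an end there as well. A narrow region of 236 bp inside the gene (chr8:79765295-79765530), 2368 bp from that end, had 3.09 and 713 tags. The third (chr8:79783463-79784559) lay 16.3 kb beyond the end, with a ratio of 8.54 and only 465 tags.

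The ID genes are short, and their inhibitor proteins share the dimerising helix-loop-helix but not the DNA contact. Each had 8 regions. ID1 on chromosome 20 (chr20:31605289-31606510, plus strand) had the widest start region of the 10 genes (chr20:31604020-31606311), 2292 bp with 7 summits, so that it spanned most of the gene. Its 2 strongest summits were nearly equal, with 1286 tags (interval 1217 to 1358) at 931 bp upstream and 1285 tags at 83 bp upstream, and fold enrichments of 8.0 and 7.94. A region 7714 bp downstream of the start (chr20:31612636-31613371), at no gene end, had the highest ratio of the window, 11.7 with 1014 tags. Next came a region at an end of the non-coding HM13-AS1 (chr20:31572447-31573617), with 8.67, and one inside HM13, a protease gene (chr20:31562710-31563427), with 6.46. The lowest ratio, 2.34, lay at an end of HM13.

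ID2 on chromosome 2 (chr2:8682056-8684461, plus strand) had a single summit in its start region (chr2:8681762-8682591), 82 bp upstream, with a fold enrichment of 5.92 and 1631 tags (interval 1553 to 1712). The partner transcript ID2-AS1 has an end there. On either side stood regions 3147 bp upstream (chr2:8678715-8679400), with 6.11 and 1290 tags, and 3838 bp downstream of the start (chr2:8684942-8686212), with 4.36 and 862 tags. The other 5 regions were upstream inside LOC105373411, 28.3 to 45.1 kb from the start, with ratios of 3.19 to 6.07, the highest at chr2:8642334-8642953 and the next, 5.29, at chr2:8653496-8654235. None of the 8 lay at an end of another protein-coding gene.

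ID3 on chromosome 1 (chr1:23557926-23559501, minus strand) had 20 summits in its window. Its start region (chr1:23559143-23559902) had a single summit 72 bp upstream, with a fold enrichment of 6.50 and 1006 tags (interval 945 to 1070). A region 2996 bp upstream (chr1:23562046-23562694) had a higher ratio, 7.71, and fewer tags, 839. The highest ratio, 9.12 with 470 tags, was found 19.5 kb downstream of the start (chr1:23539497-23540314) at an end of LOC124903876, a non-coding gene that spans ID3. Farther on, a region at an end of the cell cycle gene E2F2 (chr1:23530541-23532023) had 7.55, and the lowest ratio of the window was 4.33.

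**Figure D2:**
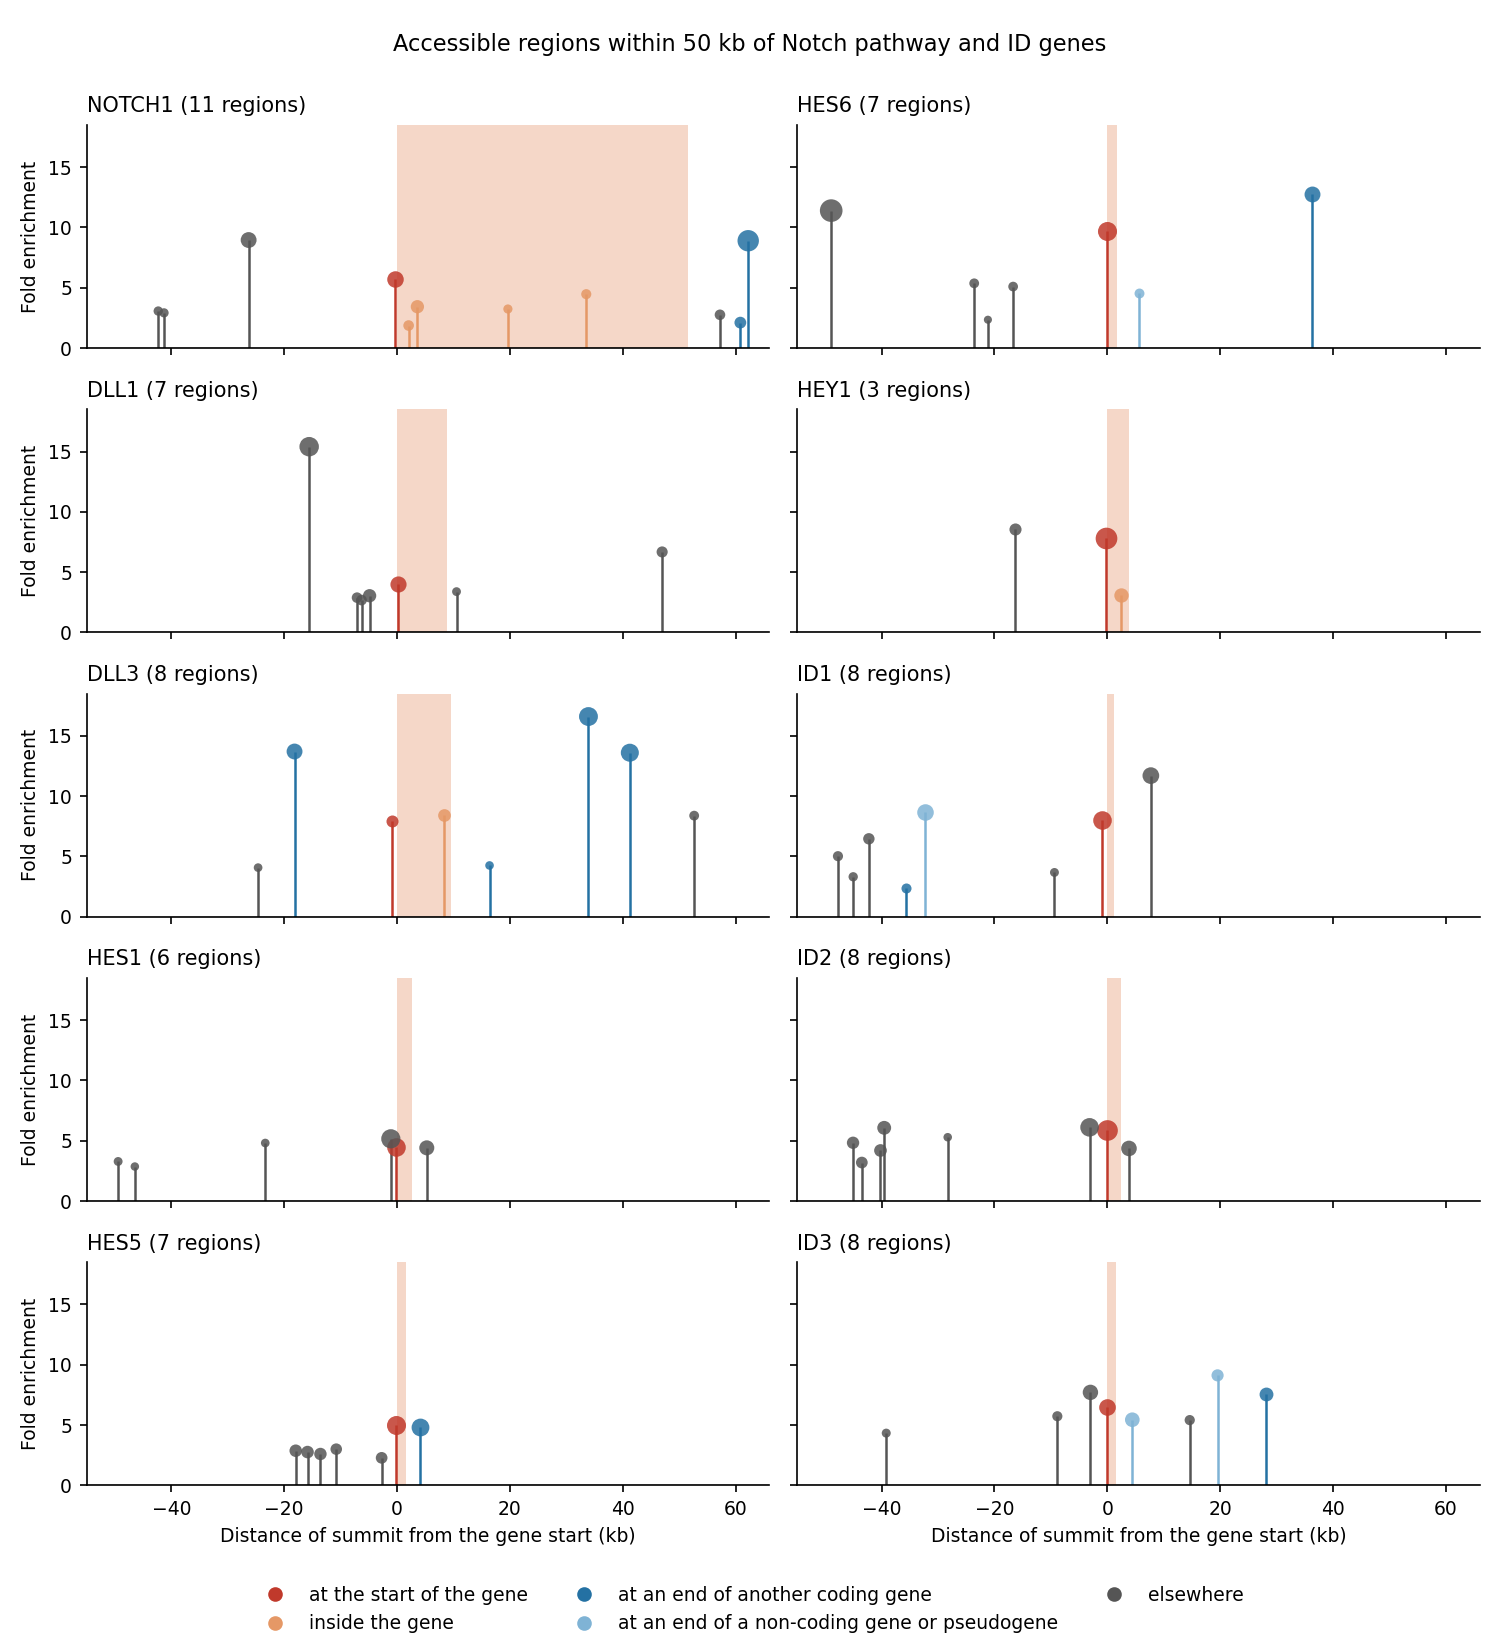
Fold enrichment (vertical axis) of each of the 73 regions against the distance of its strongest summit from the gene start in kb (horizontal axis, negative beyond the start and positive towards and past the far end; for DLL1, DLL3 and HEY1 from the outer end with a region). Shading marks the gene, colour the place of the region and point area the tag count. DLL1 shows its highest ratio, 15.4, at 15.6 kb beyond the end, inside FAM120B, and HEY1 has only 3 regions.

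At the starts, tag counts and ratios ranked the genes differently. By tags the order was HEY1, ID2, HES6 and HES5, then HES1 and ID1 with 1286 each, then ID3, NOTCH1 and DLL1, and DLL3 last. The Poisson intervals of HES6, HES5, HES1 and ID1 overlapped one another, as did those of ID3, NOTCH1 and DLL1, so no order is read within those sets. The intervals of HEY1, ID2 and DLL3 did not overlap those of their neighbours, and no difference was tested. These intervals cover counting error only, with no spread between replicates. Tags amplified by PCR are not independent molecules, so the intervals may be too narrow. By ratio, HES6 came first and DLL3 was among the 4 highest, while HES1 and DLL1 came last.

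The ratio divides by a local background, so rank by ratio and rank by tags part where backgrounds differ. Worked out from the values, this background averages the tags over 10 kb around the summit, the region itself and its neighbours included. HES6 and HES5 had almost the same tags, 1358 and 1356, but backgrounds of 139.3 and 269.0 tags, and hence ratios of 9.68 and 5.03. The median background of the 10 start regions was 200.7 tags, against 87.3 over all start regions. It was highest at HES1 (285.4 tags, percentile 99.4 among start regions of other protein-coding genes), ID2 (274.5, percentile 99.3), HES5 (percentile 99.3), DLL1 (233.7, percentile 98.0) and HEY1 (228.7, percentile 97.7). NOTCH1 followed with 172.7 (percentile 92.3), so that 6 of the 10 genes stood above the 90th percentile, which by definition 10% of all start regions do. ID1 had 159.8, ID3 154.0 and HES6 139.3. DLL3 was the exception, with 56.5 tags at percentile 19.6. Marker genes of several cell types were measured the same way. A background above the 90th percentile was found at 4 of 4 neural progenitor genes with a start region (165.3 tags at PAX6 to 214.0 at VIM) and at 1 of 13 neuronal genes, whose backgrounds ran from the floor of 29.22 tags at RBFOX3 to 275.0 at TUBB3. It was found at 0 of 3 astrocyte, 0 of 4 oligodendrocyte lineage, 0 of 2 pluripotency and 0 of 1 excitatory neuron genes. Among the wider lists, counting genes with a start region, such a background was found at 4 of 8 corepressor, 2 of 8 cleavage and 2 of 6 nuclear complex genes. The same held for 2 of 4 other HES, HEY and target genes, 1 of 3 ligand genes and 1 of 1 other ID gene. It held for only 1 of 13 modulator, 1 of 6 proneural, 2 of 12 BMP route, 0 of 2 receptor and 0 of 3 E protein genes. The part of other cell types in the result was not tested. This measure was added after the regions of these genes had been seen, and percentiles of ratio and of background are 2 readings of the same summits.

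**Figure D3:**
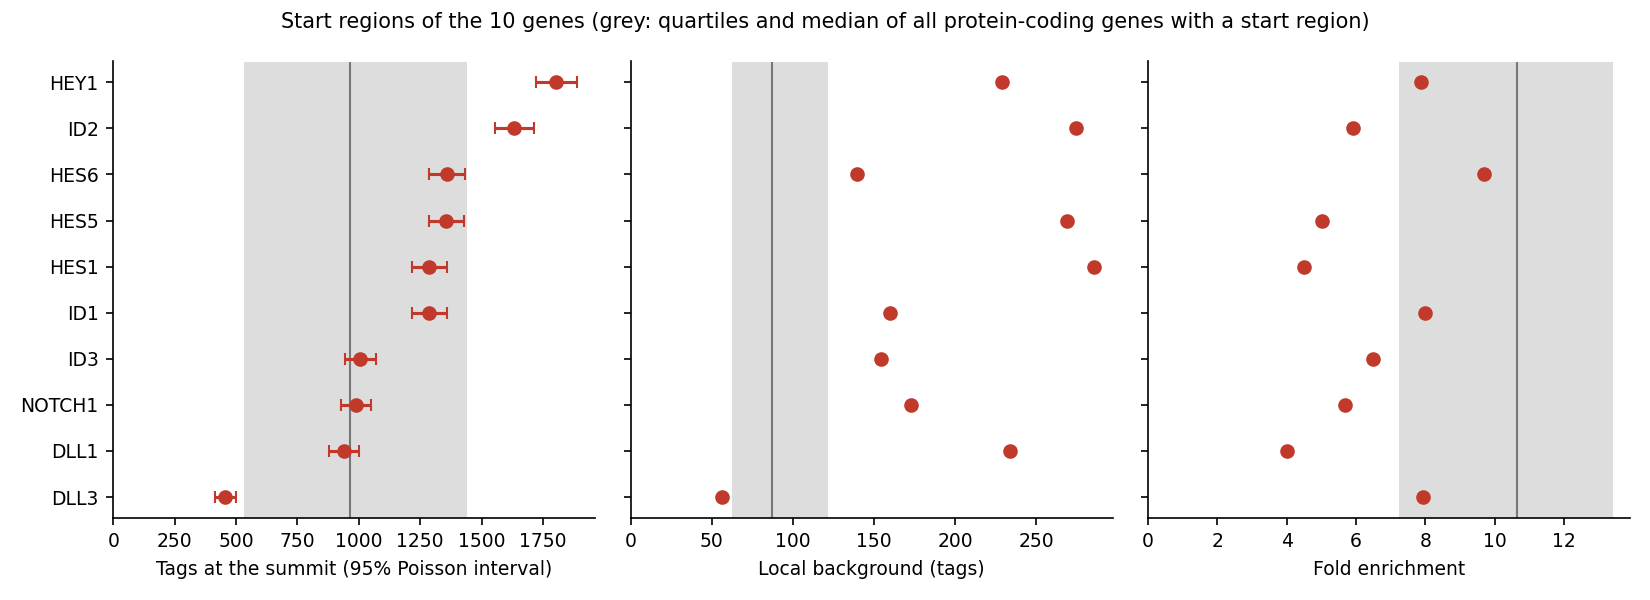
Tags at the strongest start summit with 95% Poisson intervals (left), local background in tags (middle) and fold enrichment (right) for the 10 genes, with the quartiles (grey band) and median (line) of all protein-coding genes that have a start region. Backgrounds of 9 genes lie right of the band's upper edge and all 10 ratios lie left of the median.

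**Figure D4:**
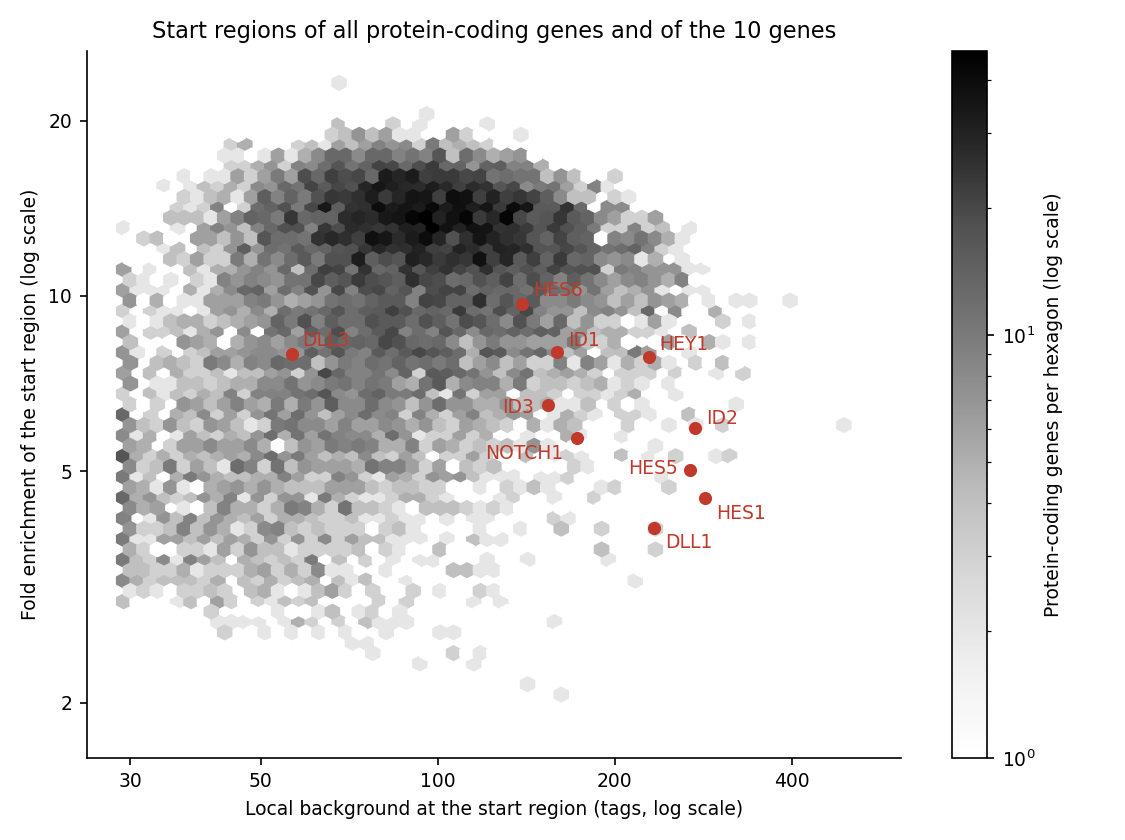
Fold enrichment against local background in tags, both on log axes, for the start regions of 13709 protein-coding genes (grey, darker where more genes fall) and of the 10 genes (red). HES1, HES5, ID2 and DLL1 lie at high background and low ratio, and DLL3 lies apart at 56.5 tags.

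Regions were also counted close to the start. Among the 7 genes with a listed start, NOTCH1, HES5, ID2 and ID3 had 3 regions each within 5 kb of it, HES1 had 2, and HES6 and ID1 had 1 each. Of all 15843 protein-coding genes with a listed start, 4.01% had 3 or more, and the median was 1. This measure, too, was added after these regions had been seen. It covers nearly the same 10 kb as the local background of the start summit, so the 2 measures are not independent. HES6 and ID1, with 1 region each, had wide start regions with 4 and 7 summits, so the count depends on whether neighbouring summits were joined by the authors' caller. The start region had the most tags of its window in 5 of the 10 genes (HES5, HEY1, ID1, ID2 and ID3), close to the 51.3% of all genes with a start region.

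Over the whole windows the genes had 3 to 11 regions each, with a median of 7.5, against 5 for all protein-coding genes. Of the 10 genes, 9 exceeded that all-gene median, which 39.4% of protein-coding genes do, and HEY1 did not. With only regions above the median fold enrichment of the list, both medians were 3, and within 20 kb they were 3.5 and 3. Of the 73 regions, 48 (65.8%) were over 1 kb from both ends of every annotated gene, against 74.2% of all regions. Widths were like those of the list, with a median of 885 bp against 882 bp, tags were higher, with a median of 489 against 238, and fold enrichments were lower, with a median of 4.83 against 5.6. The window edge at 50 kb was arbitrary: the farthest region inside it lay 49.4 kb from HES1, with a fold enrichment of 3.28, and the nearest one left out lay 50.7 kb from NOTCH1, with 3.98.

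Marker genes were read the same way, as a check of the labelled cell type, and an open start does not show expression. All counts stand beside the 68.4% of protein-coding genes with a start region, and 2 of 4, 3 of 4 or 4 of 5 are near it. A start region was found for 13 of 14 neuronal genes, ELAVL4 being the exception, and for 1 of 2 excitatory neuron genes, SLC17A6 but not SLC17A7. All 4 neural progenitor genes (SOX2, PAX6, NES and VIM) had one as well, with fold enrichments from 2.04 to 5.33. So did 3 of 4 astrocyte genes, 4 of 5 oligodendrocyte lineage genes and 2 of 4 pluripotency genes (LIN28A and DPPA4, not POU5F1 or NANOG), but none of the 6 non-neural genes.

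Other genes of the Notch pathway were taken from lists chosen by function. Of 54 such genes in 7 lists, 44 had a start region (81.5%, against 68.4% of protein-coding genes). Among the ligand genes all 3 had one, from JAG1 with a fold enrichment of 8.95 over a background of 221.6 tags down to JAG2 with 2.75 over 88.9. Of the other receptor genes, NOTCH2 had 10.7 and NOTCH3 7.62, and NOTCH4 had no start region. NOTCH2 has near-identical copies elsewhere on its chromosome, so its value is uncertain.

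Of 9 genes for proteins that cut the receptor, 8 had a start region, with a median ratio of 13.0, from NCSTN, a subunit of gamma-secretase, with 15.4 to PSENEN, another subunit, with 5.36, and FURIN had none. All 6 genes of the nuclear complex had one, from the coactivator MAML1 with 16.8 to MAML3 with 5.24, as did all 8 corepressor genes, from SNW1 with 12.6 to TLE2 with 4.64. Of 15 modulators 13 did, from the ubiquitin ligase gene ITCH with 15.8 to NEURL1 with 3.06, while LFNG, for a glycosyltransferase that tunes ligand choice, and DLK1 had none.

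Among the remaining HES, HEY and target genes a start region was found for 4 of 10, against the 68.4% of all protein-coding genes, from HEY2 with 12.5 to BHLHE40 with 5.04, and not for HES2, HES3, HES7, HEYL, BHLHE41 or HELT. The other 2 of the 4, NRARP and HES4, were picked out after their values had been seen: they had ratios of 5.76 and 6.97 over backgrounds of 209.7 and 181.2 tags, at percentiles 96.3 and 93.6 of all start regions. The backgrounds of HEY2 and BHLHE40 were 121.8 and 103.3 tags, at percentiles 75.1 and 63.4. Of the 6 genes without a start region, HES3 and HES7 had 4 regions each within 5 kb of the start, BHLHE41 had 2 and HES2 had 1. HEYL and HELT had none there. ID4, the remaining ID gene, had a ratio of 7.77 and 1625 tags over 208.2 tags (percentile 96.2), with 3 regions in its window. The partners of ID proteins were all open: of the 3 E protein genes, TCF3 had the highest ratio, 13.5, and TCF4 the lowest, 9.68. Within 50 kb TCF12 had 17 regions, TCF4 13 and TCF3 5, against a median of 5 for all protein-coding genes. The window includes the gene itself, so it is wider for longer genes.

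**Figure D5:**
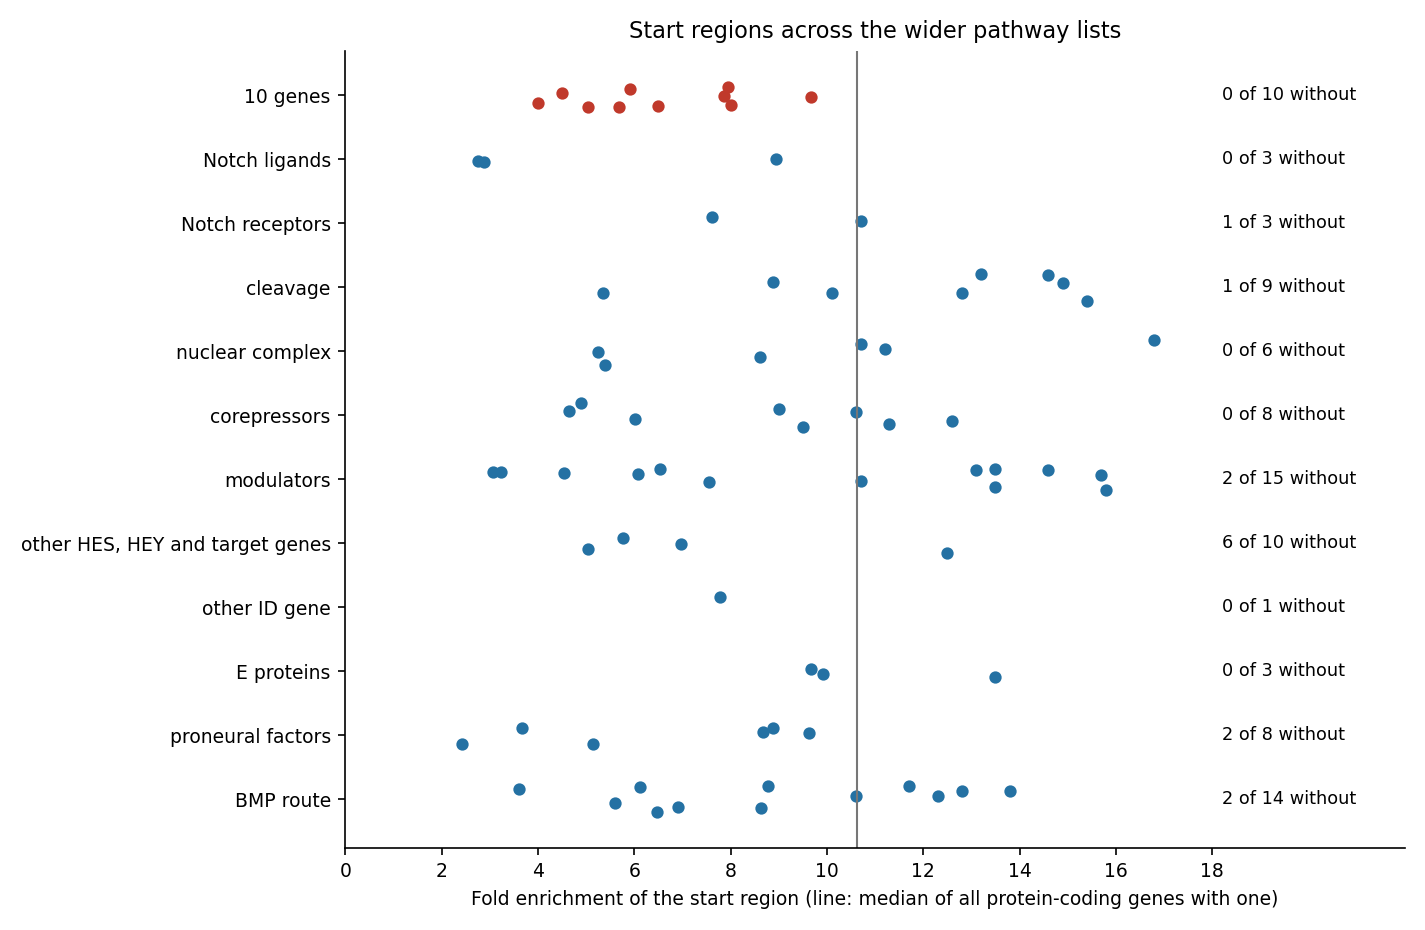
Fold enrichment of the start region (horizontal axis) for the 10 genes (red) and for the other genes of each list (blue; small vertical offsets only separate points), with the median of all protein-coding genes as a line and the number of genes without a start region at the right. The 10 genes lie left of the line, the cleavage genes mostly right of it, and 6 of the 10 other HES, HEY and target genes have no start region.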

How the data were processed

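The data are 1 narrowPeak list for all 3 ATAC-seq replicates, named in the labels as the optimal set by irreproducible discovery rate. The build is hg38, per the submitters' processing notes, and the aligner and caller are not given in the sources used here. The fold enrichment was deposited by the authors as a linear ratio per summit, with a −log10 p and −log10 q and a score of 540 to 1000. Entries with equal bounds were merged, keeping the summit with the highest −log10 p. Tag counts were recovered from ratio and −log10 p under a Poisson tail with a pseudocount of 1 (worst miss 0.00079), and 99.8% of backgrounds above a floor of 29.2 tags were within 0.0005 of multiples of 0.015, 1 tag of 150 bp over 10 kb. The depth of each replicate is unknown. The code was tested on simulated data. Genes, starts and promoters came from RefSeq GRCh38.p14. Positions count from 1. Python 3.11.15, numpy 2.4.6, scipy 1.17.1 and pandas 2.3.3 were used.

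The genes and lists were chosen with earlier results of these data known. The regions named are every one at a start or inside a gene, and the 3 highest by fold enrichment elsewhere in each window. In the wider lists the genes named are those with the highest and lowest start ratio and those without a start region. No statistical test was made, because the list holds no value per replicate. With 1 pooled list, no gene could be named for a similar pattern over samples. Alternatives were a score of at least 830, other windows, overlap in place of summits, every summit entry, distal regions only and tag counts.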

Additional observations from a re-analysis of the deposited data

How the results depend on the processing

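The alternatives gave 111 recomputed values, of which 67 stayed within 1.5 times the reported count or within counting error and 44 did not. For single genes, 33 of 80 window counts moved by more than 1.5 times. The 73 regions became 28 above the median fold enrichment, 151 as summit entries, 46 within 20 kb, 118 within 100 kb and 48 with distal regions only, as each setting admits fewer or more by construction. The median of 7.5 regions per gene became 3 above the median fold enrichment (3 for all protein-coding genes), 15 as entries (11) and 3.5 within 20 kb (3). Above the median fold enrichment, 7 of the 10 genes had a start region, against 58.2% of all protein-coding genes. Within 500 bp 8 did, against 63.8%. That setting leaves out DLL3 and ID1, as only the strongest summit of a region was counted. The other settings gave 10, against 66.7% to 71.7%, or 7 of 7 with listed starts only, against 71.2%. The median start ratio of 6.21 became 7.86 over the 7 genes left above the median fold enrichment and 5.80 over the 8 within 500 bp. In tags the median was 1286 against 966 for all start regions, so the median of the 10 genes was above that of all start regions by tags and below it by ratio, while DLL1 and DLL3 were below it by both. Restricting to listed starts was chosen after seeing the data. No paired analysis was possible because a single pooled list stands for all 3 replicates of the only group, which also means that none of them could be dropped in turn.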

Other observations

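The proneural genes, which HES proteins repress and ID proteins counter, were open at the start in 6 of 8 cases, near the 68.4% of all protein-coding genes. Their fold enrichments ran from 2.43 at NEUROG3 to 9.63 at ATOH1, with a list median of 6.91 against 10.6 for all, and NEUROG1 and NEUROD2 had no start region. The list had a median of 7 regions within 50 kb, against 5 for all protein-coding genes, and 5 of its 8 genes exceeded 5, as 39.4% of all genes do.

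Genes of the BMP route, which feeds the ID genes in many tissues, were open at the start in 12 of 14 cases, against 68.4% of all protein-coding genes, with a list median ratio of 8.71 against 10.6. The signal carrier SMAD5 had the highest, 13.8, and the ligand gene BMP7 the lowest, 3.61. SMAD7, an inhibitor inside the cell, and NOG, a secreted one, had no start region. Their median was 5 regions within 50 kb, as for all protein-coding genes.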
